A study of Mus musculus with 6 samples.

Results

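The genes described here are 9 markers of the enteric nervous system, the network of nerve cells and glia in the gut wall, measured in mouse colon with and without the drug lenvatinib. They were picked by gene symbol, though earlier results of these data were known when they were chosen. S100b, Sox10 and Gfap stand for enteric glia, and Elavl4, Uchl1 and Tubb3 for nerve cells of any kind. Vip, Nos1 and Chat stand for the peptide or enzyme that defines a transmitter. All 9 were found among the 25339 genes of the table. The study profiled colon RNA in 6 libraries, 3 from mice given the solvent DMSO and 3 from mice given lenvatinib, a cancer drug taken by mouth that blocks several growth factor receptors with kinase activity, among them those for VEGF, PDGF and FGF, and also RET and KIT. The labels number the libraries 1 to 3 as biological replicates and give no strain, age, sex, dose or duration, and they do not say whether colitis, which the series title concerns, was induced. Levels are FPKM (fragments per kilobase of gene, scaled to library size), which may be compared between genes since they are per length.

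Enteric neurons lie in a plexus between the muscle layers and another under the mucosa, and their glia wrap cell bodies and fibres and also reach the mucosa. Inhibitory motor neurons relax the muscle through nitric oxide, made by the Nos1 enzyme, and the peptide VIP, while excitatory ones contract it through acetylcholine, made by the Chat enzyme, and tachykinins. Both cell types arise from neural crest cells that need the receptor RET, its ligand GDNF and the transcription factor Sox10. RET is one of the kinases that lenvatinib inhibits.

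The table let whole reads be recovered, and depth was even, at 37660528 to 39287783 reads in genes per library. Libraries 2 and 3 of each group were close to each other: their median squared deviation over counting noise was 2.53 for DMSO and 2.29 for lenvatinib, against 10.2 to 25.2 for all other pairs. DMSO 1 was the only library with Y-linked Ddx3y (6.54 FPKM, listed at 0 in the other 5) and almost without Xist (0.00147 FPKM against 15.9 to 19.8). The labels call libraries 2 and 3 biological replicates but do not name the animals they came from. As these libraries are so alike, the spread that p-values rest on here may still be technical, which was not tested. With 3 libraries against 3, the exact permutation test cannot go below p = 0.1.

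None of the 9 genes changed by the test. In limma on log2(FPKM + 1), over the 11774 genes averaging 1 FPKM or more, 4 of the 9 were abundant enough to be tested and 0 passed at an adjusted p of 0.05 (0 also at an unadjusted p below 0.05), beside 2.03% of all genes tested (1.1% higher and 0.934% lower) and 22.0% at the unadjusted p. With genes from a mean of 0.1 FPKM upward (15695 genes), 8 were tested and 0 passed in limma, beside 1.59% of all (0.828% higher and 0.758% lower). At an unadjusted p below 0.05 there were 3 (Gfap, Elavl4 and S100b), beside 20.6% of all. With limma's voom on the recovered reads, 0 of the same 8 passed (2 at an unadjusted p below 0.05), beside 1.68% of all (0.816% higher and 0.86% lower) and 22.2% at the unadjusted p. The pattern under these tests was uneven. For 5 genes, S100b, Gfap, Elavl4, Uchl1 and Nos1, every lenvatinib library was above every DMSO library, while Sox10, Tubb3, Vip and Chat had groups that overlapped. Groups that did not overlap, with lenvatinib higher, were found for 8.36% of all 23951 genes above 0 (20.0% in either direction). Among the 15695 genes from 0.1 FPKM upward it was 10.3% higher, 16.1% lower and 26.4% in either direction. The median log2 difference of the 9 was 0.13, beside -0.006 over all 23951 genes above 0. For the 8 from 0.1 FPKM upward it was 0.14, beside -0.05 over all genes from that level. For the 4 from 1 FPKM upward it was 0.02, with 2 of the 4 positive, beside -0.07 over all genes from that level. In bulk tissue, a different number of cells and a different amount of RNA per cell cannot be told apart.

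**Figure D1:**
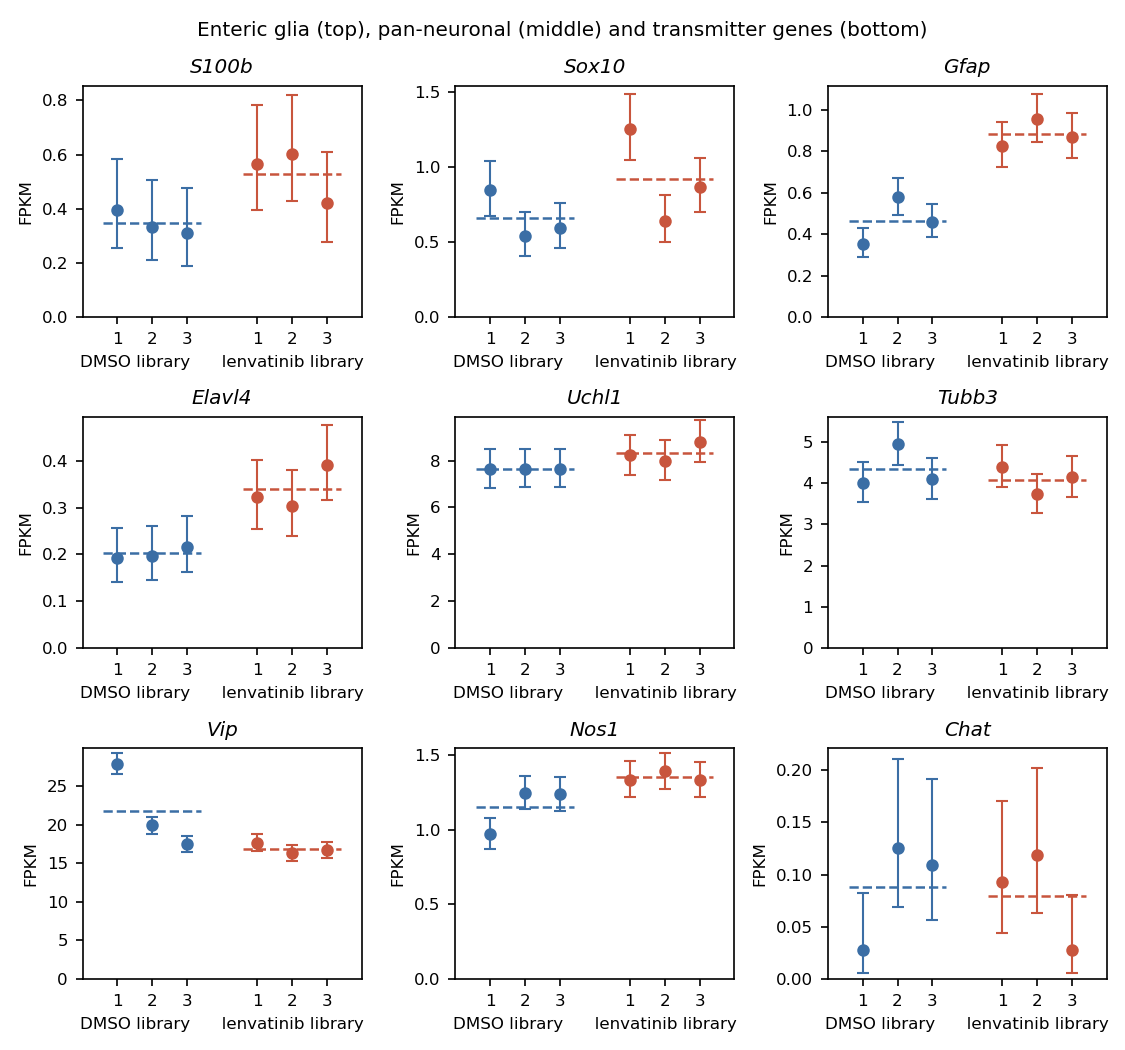
FPKM of each of the 9 genes (vertical axes, starting at 0) in each library (points, DMSO blue, lenvatinib red), with 95% Poisson intervals for counting error as bars and group means as dashed lines. S100b, Gfap, Elavl4, Uchl1 and Nos1 have no DMSO point as high as the lowest lenvatinib point, and DMSO 1 stands highest for Vip at 27.9 FPKM.

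Gfap, an intermediate filament protein of astrocytes and of part of the enteric glia, had the largest ratio between the groups of the 9. In DMSO 1 to 3 its level was 0.355, 0.578 and 0.460 FPKM, and 0.827, 0.956 and 0.870 FPKM were measured in lenvatinib 1 to 3, the order used for every gene here. All 3 lenvatinib libraries lay above the highest DMSO library, and the closely alike libraries 2 and 3 of each group lay on the same side as library 1. The means were 0.464 ± 0.112 and 0.884 ± 0.0655 FPKM (SD, n = 3 each), a ratio of 1.90. The summed reads, 403 and 762, gave a ratio of 1.90 with a counting interval of 1.68 to 2.15, an interval that covers counting error only, since reads without molecular identifiers are not independent molecules. On the log2(FPKM + 1) scale, which understates changes of low genes, the difference was 0.37 (SE 0.0774, limma adjusted p = 0.0866), and the two-sided exact permutation p was 0.1. On recovered reads voom gave a log2 fold change of 0.95 (95% interval 0.48 to 1.42, adjusted p = 0.0711). Gfap passed without lenvatinib 1 (log2 difference 0.39, limma adjusted p = 0.0204), a setting in which 30.4% of all 15695 genes passed.

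S100b encodes a calcium-binding protein of glia. It measured 0.396, 0.334 and 0.309 FPKM in DMSO and 0.566, 0.601 and 0.420 FPKM in lenvatinib. The groups did not overlap, but lenvatinib 3 and DMSO 1 rested on 27 and 25 reads, and their counting intervals, 17.8 to 39.3 and 16.2 to 36.9 reads, overlapped widely. The voom log2 fold change was 0.59 (95% interval -0.10 to 1.29, adjusted p = 0.278). S100b is also made by fat cells, whose summed list level was lowest in DMSO 1, at 39.4 FPKM, and highest in lenvatinib 1, at 158 FPKM, and the part of fat cells in its level was not tested. Sox10, the transcription factor of neural crest and glia, measured 0.844, 0.540 and 0.596 FPKM in DMSO and 1.25, 0.642 and 0.866 FPKM in lenvatinib. Library 1 was the highest of its group on either side, and lenvatinib 2 lay below DMSO 1. The voom log2 fold change was 0.45 (95% interval -0.29 to 1.19, adjusted p = 0.407). On the log2(FPKM + 1) scale the Sox10 difference was 0.20, and it moved to 0.08 without lenvatinib 1 and to 0.31 without lenvatinib 2.

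The glial promoters are shown because Gfap and S100b were the glial genes whose groups did not overlap. The sequences are the 250 bases before the transcription start, 5′ to 3′, from RefSeq on build GRCm38.p6, an older build than the GRCm39 that the submitters' processing notes name for the expression values. Windows were matched for 8 of the 9 genes, without Sox10. The Gfap window is chr11:102897201-102897450 on the minus strand and the S100b window chr10:76253586-76253835 on the plus strand. On both strands, 4 motifs were searched. TATAAA is the TATA box and TGACG the core of a cAMP response element. The sequence ACAAAG is a core bound by SOX factors such as Sox10, and ACAATG is its close variant. No match of these letters lies in either window, so neither carries capitals.
Gfap: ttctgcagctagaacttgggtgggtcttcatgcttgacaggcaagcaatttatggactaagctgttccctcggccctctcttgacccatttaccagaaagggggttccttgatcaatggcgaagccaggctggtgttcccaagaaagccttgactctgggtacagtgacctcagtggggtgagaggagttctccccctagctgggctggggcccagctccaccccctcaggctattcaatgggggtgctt
S100b: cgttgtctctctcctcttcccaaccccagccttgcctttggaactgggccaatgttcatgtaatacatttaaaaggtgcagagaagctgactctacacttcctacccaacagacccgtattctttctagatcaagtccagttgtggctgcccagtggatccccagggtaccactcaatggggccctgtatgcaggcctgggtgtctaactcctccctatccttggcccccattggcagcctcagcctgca
Of the 32851 windows of the same length in that collection, 12.4% hold TATAAA and 17.8% hold TGACG on either strand. The share with ACAAAG was 16.5%, and the share with the other SOX core 10.7%. The glial windows had GC contents of 55.6% (Gfap) and 53.6% (S100b).

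Elavl4 encodes HuD, an RNA-binding protein of differentiated neurons. It measured 0.193, 0.197 and 0.216 FPKM in DMSO and 0.322, 0.304 and 0.391 FPKM in lenvatinib. The DMSO libraries were tight and every lenvatinib library was higher. This rests on 47 to 54 reads per DMSO library and 76 to 97 per lenvatinib library. The counting intervals of DMSO 3 and lenvatinib 2, 40.6 to 70.5 and 59.9 to 95.1 reads, overlapped. The ratio of summed reads was 1.68 (counting interval 1.36 to 2.06), and voom gave a log2 fold change of 0.73 (95% interval 0.23 to 1.23, adjusted p = 0.129). Uchl1, the ubiquitin hydrolase known to histologists as PGP9.5, measured 7.64, 7.66 and 7.65 FPKM in DMSO and 8.22, 7.99 and 8.80 FPKM in lenvatinib. The DMSO values were nearly equal (333, 348 and 342 reads), closer together than counting error alone would make likely. Every lenvatinib library was higher, but the counting intervals of DMSO 2 and lenvatinib 2, 312 to 387 and 322 to 397 reads, overlapped widely. The lenvatinib mean was 1.09 times as high (7.65 ± 0.00879 and 8.34 ± 0.417 FPKM, n = 3 each). The log2 difference of 0.11 had a 95% interval of -0.04 to 0.26 (limma adjusted p = 0.322), and was 0.19 with quantile normalization and 0.18 with TMM scaling. Tubb3, a tubulin of neurons, measured 3.995, 4.93 and 4.09 FPKM in DMSO and 4.39, 3.72 and 4.14 FPKM in lenvatinib. Its groups overlapped, with the highest value in DMSO 2 and the lowest in lenvatinib 2. The log2 difference was -0.07 (95% interval -0.30 to 0.17, limma adjusted p = 0.675), and its sign was positive with quantile normalization (0.04). So the 3 general neuron markers had no common size of difference: the ratio of summed reads was 1.68 for Elavl4, the scarcest, 1.09 for Uchl1 and 0.939 for Tubb3.

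Vip, the gene of the relaxing peptide VIP, was the most abundant of the 9. It measured 27.9, 19.9 and 17.4 FPKM in DMSO and 17.7, 16.3 and 16.7 FPKM in lenvatinib. DMSO 1 stood far above the rest, and lenvatinib 1 lay above DMSO 3. The means were 21.7 ± 5.46 and 16.9 ± 0.697 FPKM (n = 3 each), with a log2 difference of -0.32 (95% interval -0.72 to 0.07, limma adjusted p = 0.288). Without DMSO 1 the difference was -0.14 (adjusted p = 0.339), less than the value with all libraries by more than 1.5 times. DMSO 1 is also the library with Y-linked transcripts, and the part of that difference in Vip was not tested.

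The Vip promoter is shown because Vip was the most abundant of the 9. Capitals mark matches, which all lie on the plus strand: TATAAA with its first base at -157, -147 and -30, and TGACG at -79, counting the base before the start as -1. No match overlaps another. The window is chr10:5638968-5639217 on the plus strand of GRCm38.p6, with a GC content of 38.4%.
Vip: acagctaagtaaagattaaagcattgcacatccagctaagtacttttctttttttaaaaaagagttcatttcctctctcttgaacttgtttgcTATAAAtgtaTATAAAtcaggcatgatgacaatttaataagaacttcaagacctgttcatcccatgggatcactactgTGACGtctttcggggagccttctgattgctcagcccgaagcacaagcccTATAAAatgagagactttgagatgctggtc
On the plus strand alone, 7.59% of the 32851 windows hold TATAAA and 10.5% hold TGACG. Of the 8 genes with a window, Vip was the only one with TATAAA on either strand. Elavl4, Nos1 and Chat have TGACG on the minus strand, and Elavl4 and Tubb3 have the SOX core ACAATG on the minus strand.

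Nos1, which makes nitric oxide in inhibitory motor neurons, measured 0.969, 1.24 and 1.24 FPKM in DMSO and 1.33, 1.39 and 1.33 FPKM in lenvatinib. Every lenvatinib library was above every DMSO library, by a narrow margin over DMSO 2 and a wider one over DMSO 1. The counting intervals of DMSO 2 and lenvatinib 3, 436 to 523 and 457 to 546 reads, overlapped widely. The log2 difference was 0.13 (95% interval -0.08 to 0.34, limma adjusted p = 0.377), and 0.07 without DMSO 1 and 0.24 with quantile normalization. Vip and Nos1, which mark overlapping sets of inhibitory neurons, thus stood on opposite sides of 0, and DMSO 1 was the extreme library for either gene, highest for Vip and lowest for Nos1. Chat measured 0.0281, 0.126 and 0.110 FPKM in DMSO and 0.0929, 0.118 and 0.0276 FPKM in lenvatinib. These values stand for 3, 14 and 12 reads and 10, 13 and 3 reads, and the ratio of summed reads was 0.900 with a counting interval of 0.509 to 1.58. That interval covers counting error only and leaves out the spread between libraries, so it is not a limit of detection. Tuft cells, chemosensory cells of the epithelium, also make Chat, and the summed level of 13 tuft cell genes was 28.2 to 34.0 FPKM in DMSO and 17.3 to 19.9 FPKM in lenvatinib. Of those, 11 genes had a mean of at least 0.1 FPKM and 4 of the 11 fell in limma, Alox5, Ltc4s and Avil among them. Over all genes 0.758% were lower by this test. With libraries 2 and 3 of each group as a random block or averaged, 0 of the 11 passed in limma (lowest adjusted p = 0.0707 and 0.339). Alox5 and Ltc4s are also genes of myeloid cells. How much of the Chat signal comes from tuft cells was not tested.

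By level over all 6 libraries, Vip (mean 19.3 FPKM) was followed by Uchl1 (7.99), Tubb3 (4.21) and Nos1 (1.25), and in this order no ranges overlapped. Below these came Sox10 (0.790), Gfap (0.674), S100b (0.438) and Elavl4 (0.271). Nos1 and Sox10 had ranges that overlapped, and so did each next pair down to Elavl4, with Sox10 above Gfap in 3 of 6 libraries. Chat was the lowest (0.0837) and below Elavl4 in all 6. Reads for the opposite strand could add to Uchl1 and Nos1 if strand was not used in counting: in the GENCODE M21 annotation only these 2 of the 9 share exon positions with another gene. The antisense gene Uchl1os was at 0 to 0.0310 FPKM and Gm26995 was listed at 0 in all 6 libraries.

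**Figure D2:**
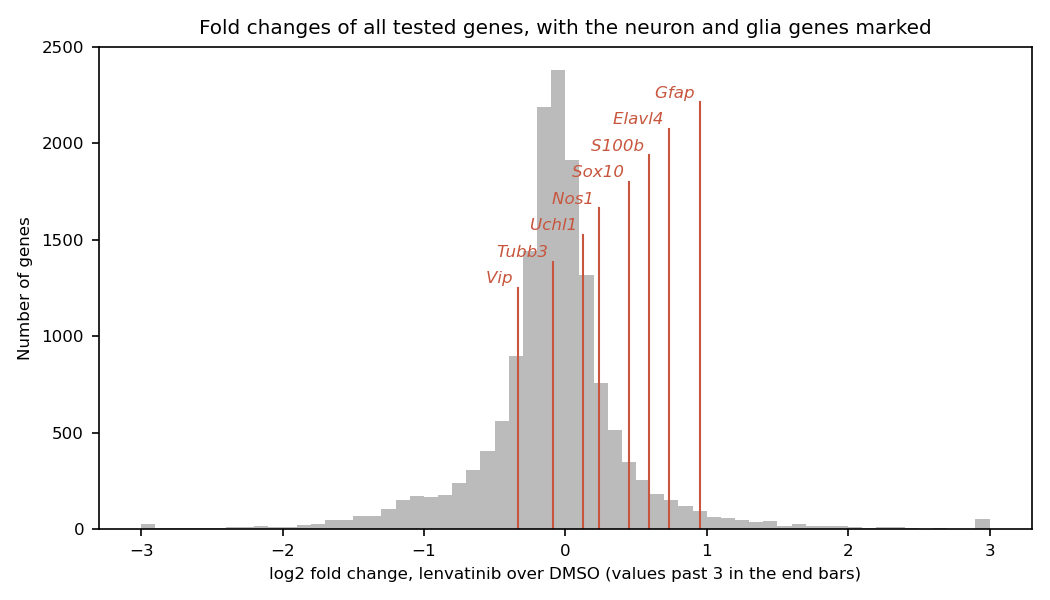
Number of genes (vertical axis) by voom log2 fold change (horizontal axis) for 15695 genes, with values past 3 placed in the end bars and 8 neuron and glia genes marked by red lines. The lines run from Vip at -0.33 to Gfap at 0.95, beside a median of -0.07 over all genes.

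Other genes of the same cells were described from lists. Of 19 further enteric glia genes, all in the table, 9 were tested at a mean of 1 FPKM and none passed in limma (4 at an unadjusted p below 0.05), with a median log2 fold change of 0.07 beside -0.07 over all genes tested. From a mean of 0.1 FPKM upward, 18 were tested, 0 passed (8 at an unadjusted p below 0.05; 0 with voom), and 9 of the 18 had every lenvatinib library above every DMSO library, with 0 the other way. The share over all 15695 genes was 10.3% higher. These 9 included the glial transcription factors Foxd3 (0.346 ± 0.208 and 0.705 ± 0.152 FPKM, n = 3 each) and Sox2 (0.0451 ± 0.0314 and 0.157 ± 0.0443 FPKM), and the channel gene Scn7a (2.17 ± 0.453 and 3.01 ± 0.0790 FPKM). Foxd3, Sox2 and Scn7a were picked after their values were seen. Sox2 averaged less than 0.1 FPKM in DMSO, so it passed the filter only through the lenvatinib group, where it was higher. The 4 most abundant of the list were Erbb3, a neuregulin receptor (log2 fold change 0.51), the adhesion molecule L1cam (0.21), Cnp (-0.45) and the ectonucleotidase Entpd2 (0.12). Their adjusted p in limma was 0.117, 0.112, 0.186 and 0.295. Erbb3, at 50.7 ± 7.97 and 72.3 ± 7.96 FPKM, is also a gene of gut epithelium, whose part in its level was not tested. Mbp, a myelin gene of the list, measured 9.74 ± 0.827 and 9.29 ± 1.11 FPKM, with groups that overlapped.

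Counts of neuron genes were even in direction. Over the 48 genes of the neuronal lists, 24 were tested at a mean of 1 FPKM and 0 passed in limma; 5 had lenvatinib libraries all above and 5 all below the DMSO libraries, beside 1178 above and 2063 below of all 11774 genes, and the median log2 fold change was 0.03. Of the 13 tested pan-neuronal genes (0 passed, 2 at an unadjusted p below 0.05), the most abundant were Sncg, a synuclein (8.17 ± 0.522 and 10.4 ± 0.899 FPKM), Rab3a of synaptic vesicles (5.06 ± 0.903 and 4.63 ± 0.105 FPKM), the transcription factor Hand2 (4.69 ± 0.0812 and 5.48 ± 0.679 FPKM) and Prph, for the filament peripherin (3.78 ± 0.258 and 5.22 ± 0.603 FPKM). Sncg, Hand2 and Prph had groups that did not overlap, while Rab3a had groups that did. The other 9 tested genes of the list had log2 fold changes from -0.21 (Stmn3, with every lenvatinib library below every DMSO library) to 0.17 (Scg3, with groups that overlapped).

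The list labelled inhibitory neuron held peptide genes beside Vip. Which neurons made these transcripts was not tested, and the label does not limit them to inhibitory neurons. Of 5 genes tested at a mean of 1 FPKM, 0 passed in limma, with a median of -0.30. At an unadjusted p below 0.05 in limma there were 4, beside 22.0% of all genes tested. Gal, for galanin, measured 4.11 ± 0.0347 and 3.17 ± 0.524 FPKM, Cartpt 1.73 ± 0.391 and 1.03 ± 0.227 FPKM and Nmu, for neuromedin U, 2.09 ± 1.06 and 0.864 ± 0.113 FPKM. Each of these 3 had lenvatinib libraries below all DMSO libraries, and for Nmu DMSO 1 was the highest, at 3.32 FPKM. Penk, for the enkephalins, measured 1.49 ± 0.411 and 1.97 ± 0.406 FPKM, and Gfra1, the GDNF co-receptor, 0.889 ± 0.0170 and 1.38 ± 0.0873 FPKM (log2 fold change 0.33, limma adjusted p = 0.0936). Nmu in lenvatinib and Gfra1 in DMSO averaged under 1 FPKM, so each passed that filter only through its higher group. The counts and the median at 1 FPKM include both. From a mean of 0.1 FPKM upward the median over 7 genes was 0.05, above 0, so the side of the median turned with the genes tested. Of 6 tested excitatory and sensory neuron genes, 0 passed in limma (1 at an unadjusted p below 0.05). Calb2, for calretinin, measured 7.71 ± 0.664 and 8.99 ± 1.29 FPKM, Tac1, the precursor of substance P, 3.05 ± 0.193 and 3.73 ± 0.353 FPKM, Sst, which enteroendocrine cells also make, 4.57 ± 1.80 and 3.21 ± 1.03 FPKM, and Gfra2 2.20 ± 0.229 and 1.80 ± 0.181 FPKM. Other genes of acetylcholine handling had nearly equal means: the vesicular transporter Slc18a3 measured 0.324 ± 0.0559 and 0.328 ± 0.0214 FPKM, and the choline transporter Slc5a7 0.129 ± 0.0473 and 0.130 ± 0.0625 FPKM.

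**Figure D3:**
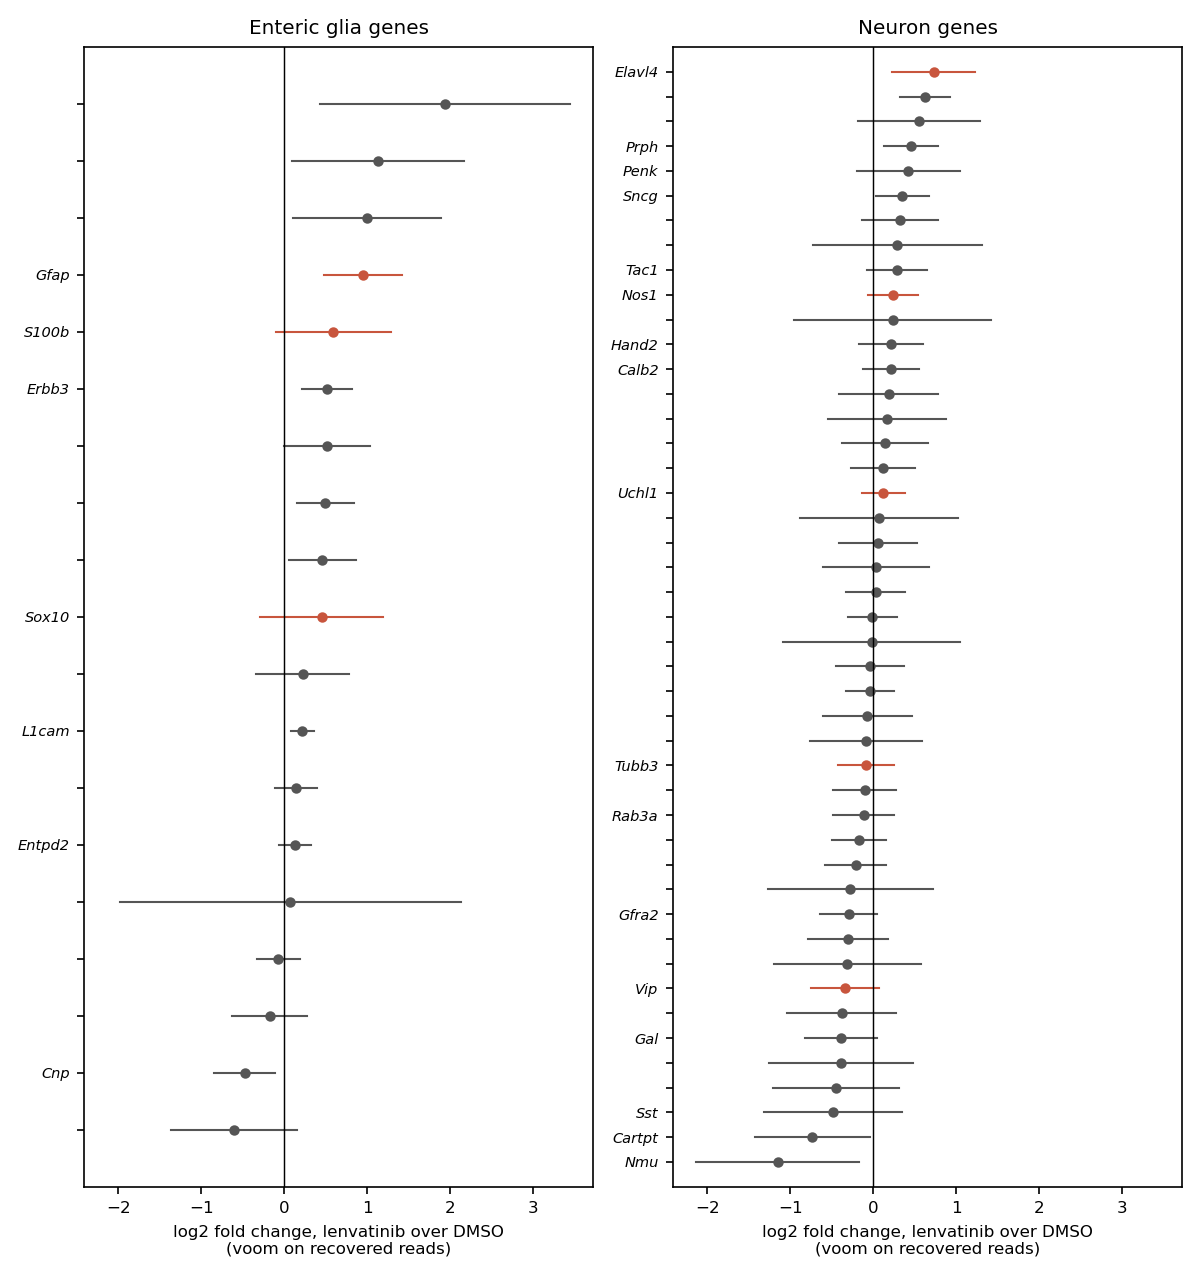
Voom log2 fold changes (horizontal axes, points) with 95% intervals (lines) of glia genes (left) and neuron genes (right) with a mean of at least 0.1 FPKM, the 8 marker genes in red; points without a name are other genes of the lists, of which a few are not drawn. Gfap at 0.95 and Elavl4 at 0.73 have intervals above 0 before adjustment, while Vip lies at -0.33 among the lower neuron genes.

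Receptors and effectors of these transmitters did not pass either. Of 22 such genes 11 were tested and 0 passed in limma (3 at an unadjusted p below 0.05), with a median of -0.02. The most abundant were the VIP receptor Vipr1 (55.6 ± 4.28 and 64.7 ± 7.38 FPKM), the purine receptor P2ry1 (9.86 ± 0.206 and 9.69 ± 0.686 FPKM), Bche, a cholinesterase (4.85 ± 0.407 and 4.78 ± 1.40 FPKM), and Gucy1b1, a subunit of the nitric oxide sensor guanylyl cyclase (4.80 ± 0.299 and 4.94 ± 0.221 FPKM). All 4 had groups that overlapped. Of 23 growth factor and development genes 13 were tested and 0 passed in limma (4 at an unadjusted p below 0.05), with a median of -0.09. Ret, the GDNF receptor and a lenvatinib target, was at 1.57, 1.75 and 1.64 FPKM in DMSO and 1.46, 1.26 and 1.71 FPKM in lenvatinib, with groups that overlapped. Erbb2, the partner of Erbb3 and likewise a gene of epithelium, measured 42.9 ± 3.67 and 57.7 ± 4.78 FPKM (limma adjusted p = 0.0862), and Ece1, the endothelin-converting enzyme, 35.6 ± 2.52 and 38.7 ± 1.64 FPKM. Erbb3 and L1cam are in this list as well as in the glia list.

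Markers of neighbouring tissue moved with the groups in part and are given beside these values. Genes known mainly from the small intestine summed to 9.16 to 12.1 FPKM over 10 genes in DMSO and 313 to 416 FPKM in lenvatinib, and 8 of 8 tested rose in limma, beside 1.1% of all genes. At so low a DMSO level a gene could reach a mean of 1 FPKM through the lenvatinib libraries alone. A gene that passed the filter in that way could hardly fall, so the count of 8 adds little to the sums. With libraries 2 and 3 of each group as a random block 6 of the 8 passed in limma, and with them averaged 1 of the 8. Lymphocyte genes summed to 95.8 to 100.3 FPKM over 9 genes in DMSO and to 79.0, 16.4 and 18.9 FPKM in lenvatinib 1 to 3, with 0 of 9 passing in limma (5 at an unadjusted p below 0.05). Of 15 smooth muscle genes 15 were tested and 0 passed in limma (5 at an unadjusted p below 0.05), with a median of 0.13. Their summed level was 1882 to 2082 FPKM in DMSO and 1977 to 2339 FPKM in lenvatinib, so the groups overlapped, and the mean ratio was 1.14. The most abundant were Actg2 (440.4 ± 32.9 and 540.3 ± 115 FPKM), Tagln (337 ± 25.1 and 403 ± 28.2 FPKM), Myl9 (296 ± 21.7 and 312 ± 19.6 FPKM) and Acta2 (269 ± 19.0 and 288 ± 17.9 FPKM). Tagln alone of these 4 had groups that did not overlap. Mesothelium, the outer lining of the gut, had a summed level of 2.52 to 2.90 FPKM over 7 genes in DMSO and 4.37 to 7.81 FPKM in lenvatinib, with lenvatinib 1 the highest. Fat cell genes summed to 39.4 to 112 FPKM in DMSO and 87.3 to 158 FPKM in lenvatinib. Enteroendocrine cells, which also make Uchl1, summed to 240 to 244 FPKM over 14 genes in DMSO and 202 to 215 FPKM in lenvatinib, with 0 of 9 tested passing in limma (2 at an unadjusted p below 0.05). Genes of colonocytes, the absorptive cells of the epithelium, summed to 11243, 12407 and 12739 FPKM over 10 genes in DMSO and 10571, 15080 and 14970 FPKM in lenvatinib. Of the 10, 9 had a positive fold change, with a median of 0.39, and 0 passed in limma (3 at an unadjusted p below 0.05; 1 passed with voom). No gene of these lists was at 0 in every library. The glia list summed to 133 to 146 FPKM in DMSO and 158 to 164 FPKM in lenvatinib, a sum that Erbb3 and L1cam dominate, and the pan-neuronal list to 47.2 to 48.5 and 50.9 to 53.0 FPKM. The inhibitory neuron list went the other way, at 9.73 to 13.1 FPKM in DMSO and 8.24 to 9.47 FPKM in lenvatinib, and the excitatory and sensory list overlapped, at 19.7 to 25.9 and 19.5 to 23.3 FPKM. The part of small intestine, lymphocytes, muscle, mesothelium, fat, endocrine cells and colonocytes in the neuron and glia values was not tested.

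**Figure D4:**
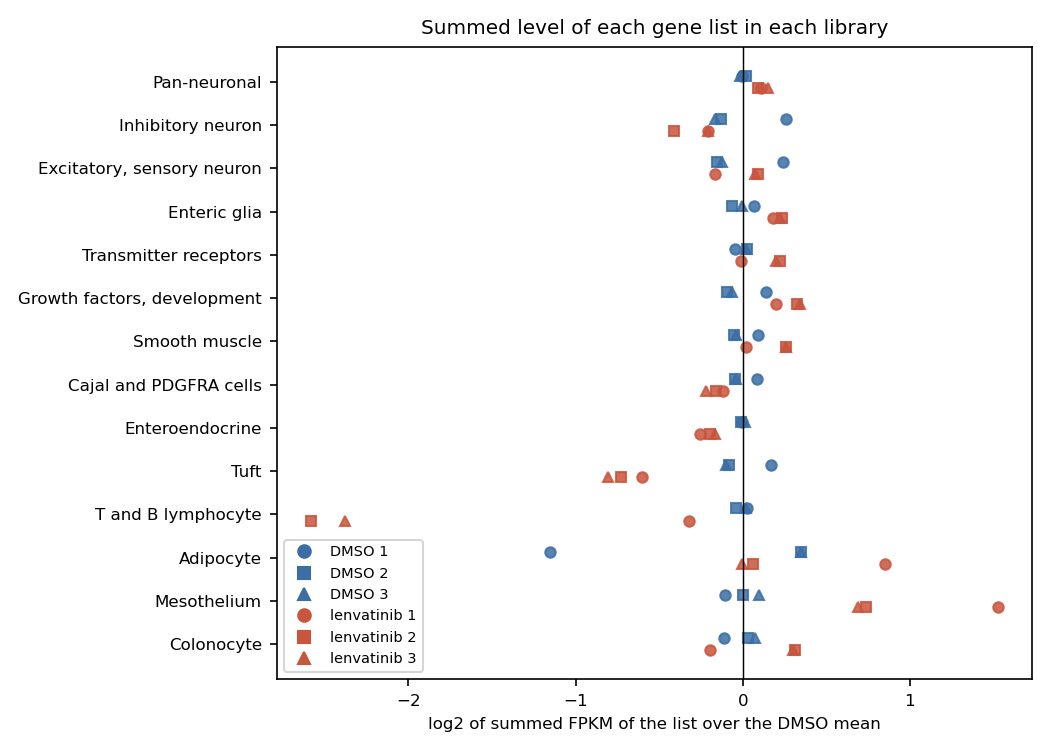
Summed FPKM of each list but the small intestine one in each library, as log2 over the DMSO mean of that list (horizontal axis); colours mark the group and symbols the library number. For the glia and pan-neuronal lists all 3 lenvatinib points lie above all 3 DMSO points, and for the inhibitory neuron, tuft and enteroendocrine lists, among others, below them.

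The genes whose profile over the 6 libraries was most like the mean profile of the 4 genes tested at 1 FPKM were Zfp526, Cercam, Ubr1, Rnf5 and St7, with root mean square differences of 0.00862 to 0.0191 on the log2 scale, beside a median of 0.136 over 11770 genes. That mean profile was nearly flat, deviating by at most 0.06 from its own mean, and it averages Vip and Nos1, whose differences had opposite signs. The 5 genes likewise varied little, with ranges of 0.10 to 0.15 on that scale.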

How the data were processed

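RNA was sequenced from mouse colon in 3 DMSO and 3 lenvatinib libraries, grouped by the sample titles. The deposited values are FPKM that the authors computed, 1 column per library, and all 6 columns were used. HTSeq and the build GRCm39 are named in the submitters' processing notes; for aligner, annotation, strand setting and versions the entry is: not given in the sources used here. Values of a gene are whole multiples of the value of 1 read, within 0.01 reads, for all 23951 genes above 0 (100.0%), which gave the reads and depth. Limma 3.58.1 in R 4.3.3 (trended, robust prior; two-sided; Benjamini-Hochberg over all genes tested, threshold 0.05) was fitted on log2(FPKM + 1), pseudocount 1, for genes averaging 1 FPKM or more, and was tested on simulated data. Voom on recovered reads and the fits with a mean of 0.1 FPKM that change another choice too were added after the data were seen. Single genes were also compared by exact permutation over 20 regroupings. The 9 genes and all lists were chosen with earlier results of these data known. Named genes are the 9, the 4 most abundant of each list, genes that passed and the 5 most alike in profile; Foxd3, Sox2, Scn7a, Mbp, Stmn3, Scg3, Gfra1, Slc18a3, Slc5a7, Ret, Avil, Kcnn3, Ddx3y and Xist were named after their values were seen. The rule also selects genes of other lists, which are left out, and some genes are not reported here.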

Additional observations from a re-analysis of the deposited data

How the results depend on the processing

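Of the 9 genes, 0 passed in every alternative run (limma and voom) except without lenvatinib 1 from a mean of 0.1 FPKM upward, where Gfap made it 1. Groups did not overlap, with lenvatinib higher, for 5 genes, beside 8.36% of all 23951 genes above 0. Under its alternatives it was 5 or 6 genes, beside 8.36% to 15.8% of all. The 6th was Sox10, without DMSO 1 (14.4% of all) or lenvatinib 2 (11.7%). Vip was lower without overlap with libraries 2 and 3 averaged, without DMSO 3 and without lenvatinib 1. In these settings groups did not overlap in either direction for 32.4%, 25.4% and 45.8% of all genes above 0. The sign of Tubb3 turned with quantile normalization (0.0391) and ranged from -0.11 to 0.00974 when 1 library was left out. Chat, at -0.01, turned with libraries 2 and 3 averaged (0.0141) and ranged from -0.0508 to 0.0245 when 1 library was left out. A pseudocount of 0.1 gave larger log2 differences for the scarce genes (Gfap 0.82, Elavl4 0.53, S100b 0.49, Sox10 0.40) and for Nos1 (0.22). Over all genes 239 changed, and 140 with no filter, 29 with the replicate block, 3 with libraries 2 and 3 averaged and 46 with them as a random block. When 1 library was left out it was 45 to 4479, the highest without lenvatinib 1; without DMSO 2 and 3 it was 50 and 45, without lenvatinib 2 and 3 58 and 57, and without DMSO 1 270. From a mean of 0.1 FPKM upward the same settings gave 29, 3, 48 and 41 to 4767 (48 and 41 without DMSO 2 and 3, 55 and 54 without lenvatinib 2 and 3). Of the list genes, 11 passed, and 4 with the replicate block, 1 with the averages, 6 with the random block and 5 to 49 without 1 library, or 4, 1, 6 and 5 to 51 from 0.1 FPKM upward. The causes were not tested. Same-numbered libraries deviated apart (correlations -0.20, -0.16 and -0.15 for numbers 1 to 3), and no library correlated best with its own number. Libraries 2 and 3 of each group are alike, so these correlations are tied together. They cannot settle whether the numbers pair the libraries. A planned count test was not run, as the values are FPKM; voom took its place. Depth limits Chat (3 to 14 reads a library) and S100b (20 to 39 reads).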

Other observations

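Interstitial cells, which pass signals from enteric nerves to muscle, were looked at in the same libraries. Of 9 genes of Cajal and PDGFRA-positive cells 6 were tested at a mean of 1 FPKM and 0 passed in limma (1 at an unadjusted p below 0.05), while from a mean of 0.1 FPKM upward 1 of 9 fell, beside 0.758% of all genes. That gene was Kcnn3, a potassium channel that mediates purinergic relaxation in PDGFRA-positive cells, chosen after its value was seen. With libraries 2 and 3 of each group as a random block or averaged it did not pass (limma adjusted p = 0.435 and 0.577), nor did it without any 1 library other than lenvatinib 1 (0.0577 to 0.172). It measured 1.07, 1.15 and 1.02 FPKM in DMSO and 0.538, 0.571 and 0.532 FPKM in lenvatinib (limma adjusted p = 0.0313; voom log2 fold change -0.98, adjusted p = 0.0197). Pdgfra, a lenvatinib target, measured 12.9 ± 2.50 and 9.97 ± 1.69 FPKM (SD, n = 3 each), with groups that overlapped. Kit, another target and the marker of Cajal cells and mast cells, measured 7.96 ± 0.231 and 6.28 ± 0.316 FPKM (limma adjusted p = 0.0830), and Ano1, the chloride channel of Cajal cells, 4.43 ± 1.26 and 4.91 ± 0.352 FPKM. P2ry1, the receptor that opens Kcnn3 channels, measured 9.86 ± 0.206 and 9.69 ± 0.686 FPKM.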
